A study of Mus musculus with 6 samples.

Results

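The 32 genes listed for cholesterol and fatty acid synthesis were read on arrays of mouse cells labelled as bladder epithelium, chosen by name as enzymes of both pathways together with their main regulators. Of these, 31 had a probe set annotated to that gene alone, and all 31 passed the filter on low signal, out of 14222 genes tested in all. Acat2 had no such probe set here and was not analysed. The samples were 3 arrays of DsRed-positive cells and 3 of DsRed-negative cells, numbered 1, 2 and 5 in each group. All came from FVB/N x C57BL/6 mice at postnatal day 7, labelled male, with the Upk1b allele B6;129P-Upk1btm1Zhang/J given as the reported gene. Upk1b encodes a uroplakin, a plaque protein of the urothelial surface. The labels say that no sample was pooled, but not how DsRed-positive cells were separated, what drives DsRed, or whether arrays of a group came from separate mice. The p-values therefore measure the spread between these samples, and the number of arrays limits the precision.

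Cholesterol is built from acetyl-CoA through mevalonate, the isoprenoid farnesyl diphosphate, squalene and lanosterol, and fatty acids are built from acetyl-CoA by carboxylation, chain synthesis, elongation and desaturation. The transcription factors encoded by Srebf2 and Srebf1 drive the sterol and the fatty acid branch in overlapping fashion. Scap carries them out of the endoplasmic reticulum for cleavage when sterols are low, and the Insig proteins hold them back when sterols are high. The apical membrane of mature urothelium, where uroplakins form plaques, is known to be rich in cholesterol and glycolipid.

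The DsRed-positive arrays carried urothelial transcripts and the DsRed-negative arrays carried stromal ones. Upk1b had a normalized log2 signal of 16.48, 16.70 and 16.67 for DsRed-positive 1, 2 and 5, against 13.27, 12.25 and 11.53 for DsRed-negative 1, 2 and 5. All 14 urothelial markers were higher, with a summed log2 level of 19.34 to 19.44 in DsRed-positive arrays, against 14.81 to 15.86 in DsRed-negative arrays, while all 8 fibroblast markers were lower, with summed levels of 13.85 to 14.74 in DsRed-positive arrays and 19.26 to 19.46 in DsRed-negative arrays. Of 5 smooth muscle markers tested 4 were lower, and of 6 endothelial markers 4, and the rest did not pass. Summed levels of smooth muscle markers were 11.15 to 11.65 in DsRed-positive arrays and 16.59 to 17.06 in DsRed-negative arrays. Those of endothelial markers were 11.11 to 11.43 and 13.46 to 14.16. The 6 adipocyte markers with a probe set of their own had a summed level of 13.54 to 14.58 in DsRed-positive arrays, against 10.80 to 11.26 in DsRed-negative arrays. Most of that was Fabp4, a fatty acid carrier that other cells also express, which read 13.54, 13.44 and 14.54 in DsRed-positive arrays, against 10.70, 9.55 and 10.31 in DsRed-negative arrays, and was higher by 3.65. Lep lay at or below the level of unspiked control probe sets on all 6 arrays, and Adipoq did so on every DsRed-positive array and 2 of 3 DsRed-negative arrays. Both arrays numbered 1 went against their label: Xist, which female cells express, had a log2 signal of 15.08 in DsRed-positive 1 and 15.48 in DsRed-negative 1, against 8.08 to 8.89 on the other arrays, and the Y-linked Eif2s3y read 6.32 and 5.44 there. For each sterol or fatty acid synthesis gene that was called, the value without both arrays is given with its result. In whole populations of cells, fewer cells of a type and less RNA per cell cannot be told apart, and the part that the unequal cell makeup plays in the differences below was not tested.

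Of 18 sterol synthesis enzymes tested, 8 were higher in DsRed-positive cells and 10 did not pass. Those that did not pass lay both before Idi1, where none of 4 passed, and after it. None of the 18 was lower, at an unadjusted p under 0.05 in limma's test either, and fatty acid synthesis genes were divided. At that unadjusted threshold, 2483 of all 14222 tested genes were higher and 2517 lower. Of the 31 genes, 12 were higher, against 9.21% of all tested genes, and 1 was lower, against 11.3% (limma, p adjusted by Benjamini-Hochberg across the whole table, threshold 0.05). The other 18 did not pass, and 14 of them had values above 0. Of all 31 genes, 26 had values above 0, against 7307 of the 14222 tested genes. The median log2 difference, DsRed-positive minus DsRed-negative, was 1.20 over the 31 genes and 0.035 over all tested genes. All DsRed-positive arrays lay above all DsRed-negative arrays for 19 of the 31 genes, against 22% of all tested genes, and below them for 1, against 21.4%. Without both arrays numbered 1, 3 of the 31 genes were higher, against 3.41% of all tested genes, and 1 was lower, against 5.33%. Leaving out DsRed-positive 1 alone left 5 genes called higher, and so did leaving out DsRed-positive 2 alone. Idi1, Sqle, Cyp51, Msmo1, Dhcr7, Srebf2 and Me1 lost their call in both cases. Srebf2 also lost it without DsRed-positive 5, Cyp51 without DsRed-negative 1, and Dhcr7 without DsRed-positive 5, DsRed-negative 1 or DsRed-negative 5. By role, the genes called higher with all arrays were 8 of 18 sterol enzymes, 2 of 6 regulators and carriers and 2 of 7 fatty acid enzymes.

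**Figure D1:**
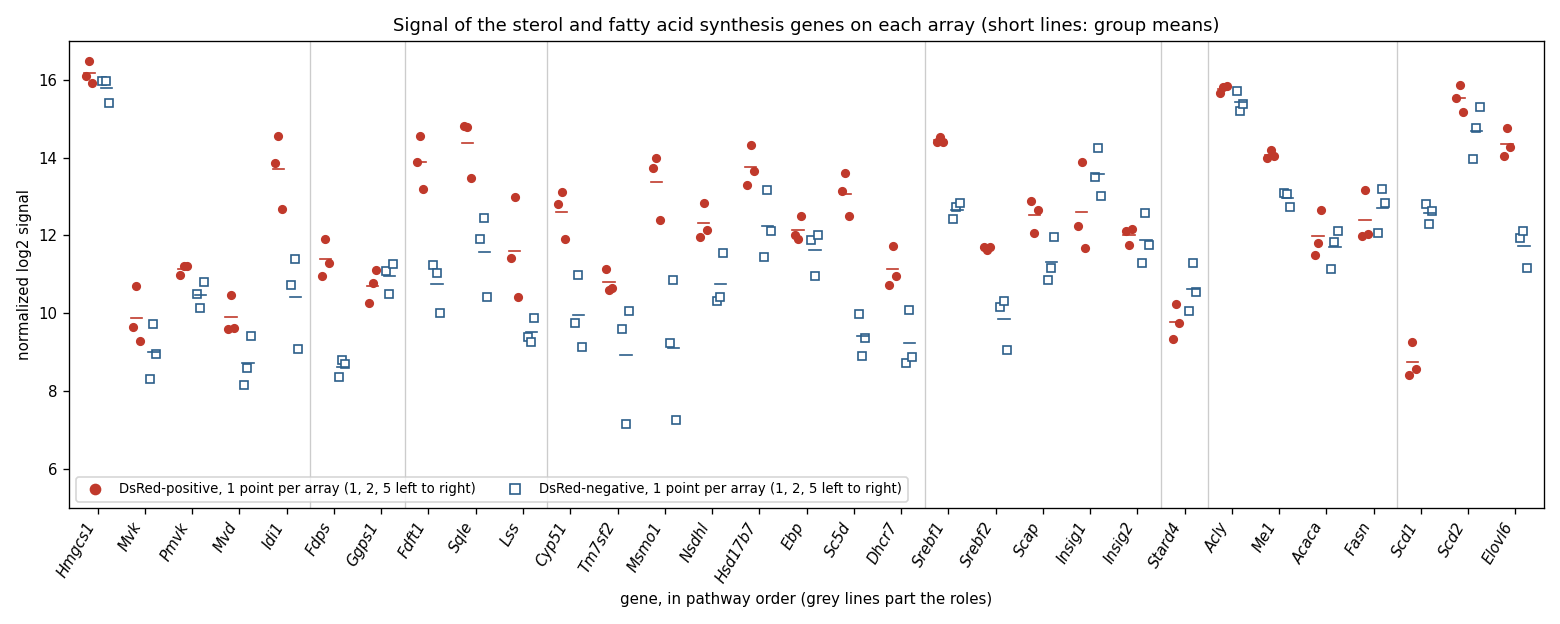
Normalized log2 signal (y axis) of the 31 genes in pathway order (x axis), with filled circles for the 3 DsRed-positive arrays, open squares for the 3 DsRed-negative arrays and short lines for group means. Idi1, Fdps, Fdft1, Msmo1 and Sc5d show wide gaps with DsRed-positive arrays on top, Scd1 shows the reverse, and Hmgcs1, Acly and Fasn overlap. Heights of different genes are not comparable, since each is a different probe set.

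The genes read ahead of Idi1, which were Hmgcs1, Mvk, Pmvk and Mvd, did not pass, and other opening steps were not analysed here. Hmgcs1, which condenses acetyl units into HMG-CoA, had a log2 signal of 16.09, 16.46 and 15.92 in DsRed-positive arrays 1, 2 and 5, against 15.96, 15.97 and 15.41 in DsRed-negative arrays 1, 2 and 5. These ranges overlap, and the difference was 0.38 ± 0.35 (SE, adjusted p = 0.498). The other 3 tested Hmgcs1 probe sets, which are dimmer, gave larger differences of 0.95, 1.07 and 1.12, none of which passed. Mevalonate kinase (Mvk) differed by 0.88 (adjusted p = 0.293) and phosphomevalonate kinase (Pmvk) by 0.65 (0.225). Mvd, the decarboxylase that makes isopentenyl diphosphate, differed by 1.17 (adjusted p = 0.122). For Pmvk and Mvd, though not for Mvk, every DsRed-positive array lay above every DsRed-negative one.

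Idi1, the isomerase that makes dimethylallyl diphosphate, was the 1 gene of 5 in this segment that passed. It read 13.86, 14.56 and 12.68 on DsRed-positive arrays 1, 2 and 5, against 10.74, 11.40 and 9.09 on DsRed-negative arrays 1, 2 and 5. The lowest DsRed-positive array stood above the highest DsRed-negative one, and the difference was 3.29 ± 0.71, or 9.80-fold (adjusted p = 0.0178). Both Idi1 probe sets were called, the dimmer at 3.10. Without DsRed-positive 1 the adjusted p reached 0.0757, and without both arrays numbered 1 the difference was 3.38 with an adjusted p of 0.147.

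The isoprenoid branch point was split between its 2 enzymes. Fdps, which makes farnesyl diphosphate for sterols, read 10.96, 11.92 and 11.29 in DsRed-positive arrays, against 8.37, 8.80 and 8.71 in DsRed-negative arrays. The groups were far apart, by 2.76 ± 0.37 or 6.78-fold (adjusted p = 0.00243), and by 2.85 (0.0348) without the arrays numbered 1. Ggps1, which extends farnesyl to geranylgeranyl diphosphate for protein prenylation, averaged 10.71 ± 0.43 in DsRed-positive cells and 10.95 ± 0.39 in DsRed-negative cells (SD, n = 3 each). Its difference of -0.24 did not pass (adjusted p = 0.713), and its 4 probe sets ran in both directions.

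The squalene steps were higher in DsRed-positive cells for 2 of 3 enzymes. Fdft1, squalene synthase and the step committed to sterols, read 13.89, 14.56 and 13.20 in DsRed-positive arrays, against 11.24, 11.03 and 10.01 in DsRed-negative arrays, a difference of 3.12 ± 0.50 or 8.70-fold (adjusted p = 0.00498). A second Fdft1 probe set gave 3.24. Sqle, squalene epoxidase, read 14.82, 14.78 and 13.49 in DsRed-positive arrays, against 11.90, 12.45 and 10.41 in DsRed-negative arrays. The Sqle groups did not overlap, with a difference of 2.77 ± 0.62 or 6.83-fold (adjusted p = 0.0212). Lss, which closes the sterol rings to lanosterol, read 11.43, 12.98 and 10.41 in DsRed-positive arrays, against 9.39, 9.28 and 9.88 in DsRed-negative arrays. Its DsRed-positive arrays were widely spread, and the difference of 2.09 ± 0.63 did not pass (adjusted p = 0.0615). A dimmer Lss probe set was called (0.0399), but its signal lay at or below the control level on all 3 DsRed-negative arrays, so that it was at least 1.72-fold higher, and another gave 2.12 and did not pass (0.151). Without both arrays numbered 1, Fdft1 gave 3.36 (adjusted p = 0.0615) and Sqle 2.70 (0.160).

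From lanosterol to cholesterol, all 8 enzymes had values above 0 and 4 passed. Msmo1, which oxidizes the methyl groups at carbon 4 of the sterol ring, had the largest fitted difference of the 31 genes with all arrays. It read 13.73, 13.98 and 12.39 in DsRed-positive arrays 1, 2 and 5, against 9.24, 10.85 and 7.26 in DsRed-negative arrays 1, 2 and 5. The last of these lay below the control level of 8.03 on its array, so the fitted difference of 4.25 ± 0.89, or 19.0-fold (adjusted p = 0.0161), rests partly on signal near background. Without that array the Msmo1 difference was 3.32 (adjusted p = 0.0235), smaller than the 3.62 of Sc5d and the -3.80 of Scd1 in size. Sc5d, the sterol C5 desaturase, read 13.13, 13.60 and 12.50 in DsRed-positive arrays against 9.99, 8.92 and 9.38 in DsRed-negative arrays. The Sc5d groups were widely separated, and the difference was 3.65 ± 0.44 or 12.5-fold (adjusted p = 0.00143). The 2 other Sc5d probe sets, both dimmer, gave 0.71 and 1.36 and did not pass.

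Cyp51, the lanosterol demethylase, read 12.80, 13.11 and 11.91 in DsRed-positive arrays, against 9.76, 11.00 and 9.14 in DsRed-negative arrays, a difference of 2.64 ± 0.56 (6.24-fold, adjusted p = 0.0172). Its 2 other probe sets gave 1.72 and 0.44 and did not pass. Dhcr7, whose enzyme reduces 7-dehydrocholesterol to cholesterol, read 10.74, 11.74 and 10.95 in DsRed-positive arrays, against 8.72, 10.09 and 8.88 in DsRed-negative arrays. The Dhcr7 groups were separate, with a difference of 1.91 ± 0.49 (adjusted p = 0.0344), but the call was kept in only 1 of the 6 fits that left out 1 array. Without both arrays numbered 1, the differences were 3.90 for Sc5d (adjusted p = 0.0286), 4.13 for Msmo1 (0.160), 2.44 for Cyp51 (0.171) and 1.86 for Dhcr7 (0.165).

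The remaining late enzymes did not pass. The C4 decarboxylating dehydrogenase Nsdhl differed by 1.55 ± 0.46 (adjusted p = 0.0566), and the sterol ketoreductase Hsd17b7 by 1.51 ± 0.52 (0.0895), each with all DsRed-positive arrays above all DsRed-negative ones. The other tested Hsd17b7 probe sets, all dimmer, gave 2.46, 0.83 and 0.10, overlapped between groups and did not pass. The C14 reductase Tm7sf2 differed by 1.86 ± 0.73 (adjusted p = 0.128), with a DsRed-negative array 2 at 7.16, below the control level, while arrays 1 and 5 read 9.60 and 10.06. Ebp, the sterol isomerase, overlapped between groups at 12.14 ± 0.31 in DsRed-positive cells and 11.62 ± 0.57 in DsRed-negative cells (SD, n = 3 each).

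**Figure D2:**
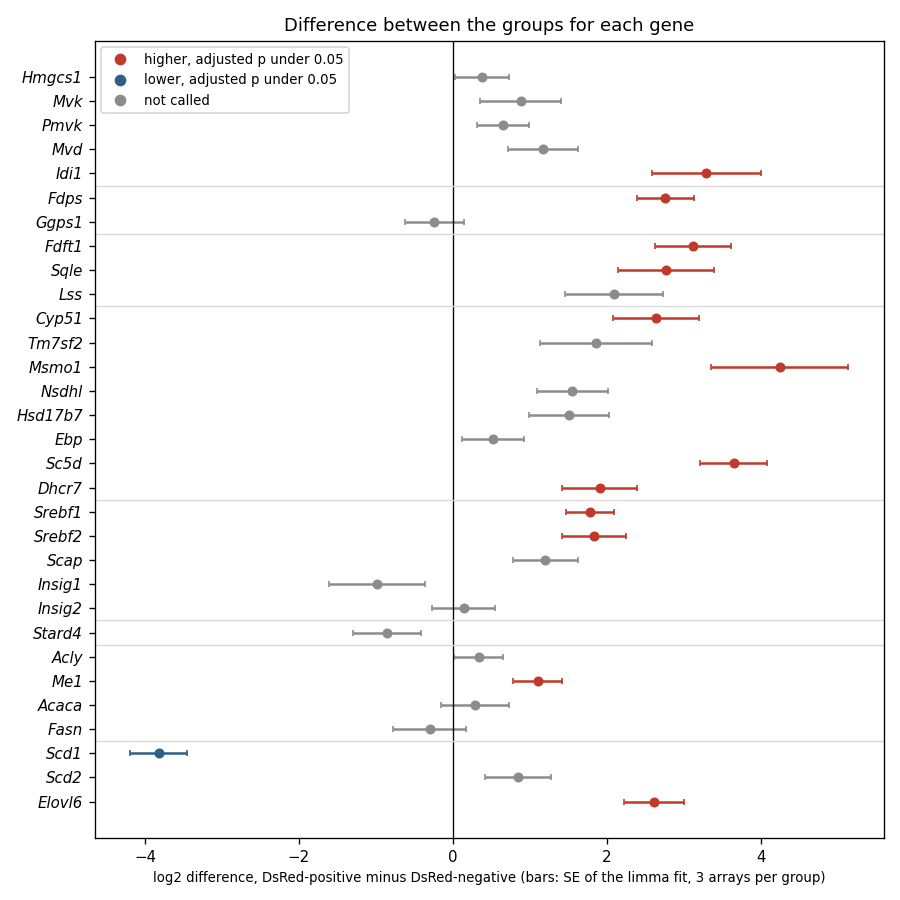
Log2 difference, DsRed-positive minus DsRed-negative (x axis), for each of the 31 genes in pathway order (y axis), with the standard error of the limma fit as bars. The 12 genes called higher run from Me1 at 1.10 to Msmo1 at 4.25, Scd1 at -3.82 is the gene called lower, and grey points did not pass.

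Some of the sterol enzymes also varied between arrays of the same group in an order that both groups shared. For 8 of the 18 sterol enzymes array 2 was the highest in both groups, against 12.7% of all tested genes, and for 6 array 5 was the lowest in both, against 12.2%. Both held for Hmgcs1, Idi1, Cyp51 and Msmo1 and for the regulator Insig1, together 5 of the 31 genes (16.1%) and 3.39% of all tested genes. Of the 7 fatty acid enzymes none showed both. Within single groups, array 2 was highest for 13 of the 18 sterol enzymes in DsRed-positive arrays and 9 in DsRed-negative arrays. Over all 14222 tested genes these counts were 4992 and 4691. Array 5 was lowest for 9 and 6 of the 18, against 4799 and 4568 of all tested genes. High counts in each group alone make a high shared count more likely. The labels do not say what the numbers mark. These counts describe 3 arrays per group with no test, for an order picked from the same values. The summed log2 level of 11 mitosis genes was 16.70 on DsRed-positive 5, against 14.86 and 14.98 on DsRed-positive 1 and 2, and 15.08, 14.49 and 15.23 on DsRed-negative 1, 2 and 5, and its part in this order was not tested.

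**Figure D3:**
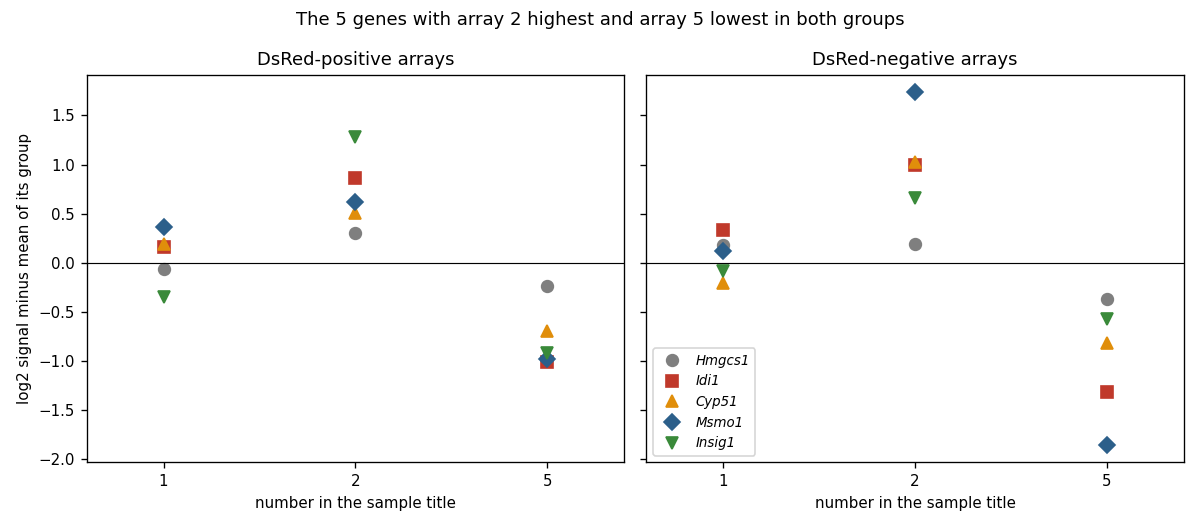
Log2 signal minus the mean of its own group (y axis) for Hmgcs1, Idi1, Cyp51, Msmo1 and Insig1 on the arrays numbered 1, 2 and 5 (x axis), with DsRed-positive arrays in the left panel and DsRed-negative arrays in the right. The 5 genes were picked for being highest on array 2 and lowest on array 5 in both groups, so the choice fixed that order. Hmgcs1 moves least.

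The promoters of the 4 sterol enzymes that shared this pattern are shown for the motifs through which sterol genes are known to be controlled. The choice of these 4 followed their values. Sequences are from RefSeq on GRCm38.p6, from 250 bases before to 50 after the gene start, 5′ to 3′ on the gene's strand. Capitals mark the sterol regulatory element core TCACNCCAC, the NF-Y box CCAAT and the Sp1 box GGGCGG, each searched on both strands, with no overlaps among the matches shown. The Hmgcs1 window is chr13:119690101-119690400 on the plus strand, Idi1 is chr13:8885356-8885655 on the plus strand, Cyp51 is chr5:4104648-4104947 on the minus strand and Msmo1 is chr8:64733529-64733828 on the minus strand.
Hmgcs1: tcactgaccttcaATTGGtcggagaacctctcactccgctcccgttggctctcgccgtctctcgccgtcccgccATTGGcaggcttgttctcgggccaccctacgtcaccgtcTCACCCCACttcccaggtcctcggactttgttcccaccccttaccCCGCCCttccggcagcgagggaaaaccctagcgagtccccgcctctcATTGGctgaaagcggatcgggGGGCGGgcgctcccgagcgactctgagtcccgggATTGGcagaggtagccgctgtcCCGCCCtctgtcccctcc
Idi1: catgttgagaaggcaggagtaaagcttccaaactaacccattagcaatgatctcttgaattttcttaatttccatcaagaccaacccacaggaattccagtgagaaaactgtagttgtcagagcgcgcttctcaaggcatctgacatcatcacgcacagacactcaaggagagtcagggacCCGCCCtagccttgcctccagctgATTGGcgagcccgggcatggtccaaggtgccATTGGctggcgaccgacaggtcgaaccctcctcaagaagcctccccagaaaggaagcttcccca
Cyp51: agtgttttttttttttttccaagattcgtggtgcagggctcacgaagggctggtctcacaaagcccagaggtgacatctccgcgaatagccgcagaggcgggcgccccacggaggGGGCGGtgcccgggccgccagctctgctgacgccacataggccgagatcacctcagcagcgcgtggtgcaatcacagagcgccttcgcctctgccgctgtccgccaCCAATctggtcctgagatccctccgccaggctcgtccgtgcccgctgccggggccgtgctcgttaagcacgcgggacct
Msmo1: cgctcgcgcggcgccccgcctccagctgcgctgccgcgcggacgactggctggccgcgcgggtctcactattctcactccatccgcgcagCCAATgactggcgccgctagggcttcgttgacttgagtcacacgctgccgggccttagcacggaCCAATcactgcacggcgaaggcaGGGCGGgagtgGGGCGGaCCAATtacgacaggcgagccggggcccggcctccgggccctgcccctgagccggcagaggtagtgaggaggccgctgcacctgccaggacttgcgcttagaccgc

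Of the 32 listed genes, 26 had a promoter window, counting Acat2. Fdps, Fdft1, Sqle, Scd1, Scd2 and Stard4 had none, so that 9 of the 12 genes called higher were searched. The NF-Y box was present in 22 of the 26, against 42.3% of 17492 protein-coding genes, and in 15 of 16 sterol enzymes. The Sp1 box was present in 21 of the 26, against 49.2% of protein-coding genes. The sterol regulatory element core in this spelling was present in the Hmgcs1 window alone, against 1.41% of protein-coding genes. Of the 9 genes called higher with a window, 8 held the NF-Y box, 8 the Sp1 box and none that core. The windows shown hold 4 NF-Y boxes for Hmgcs1, 2 for Idi1, 1 for Cyp51 and 3 for Msmo1. They hold 3, 1, 1 and 2 Sp1 boxes in the same order. A relation between these motifs and the calls was not tested. A match describes the letters in these windows and not a site in use.

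Both transcription factor genes were higher in DsRed-positive cells, while Scap and the Insig genes did not pass. Srebf1, the factor gene best known for lipogenesis, read 14.39, 14.52 and 14.40 in DsRed-positive arrays 1, 2 and 5, against 12.43, 12.73 and 12.83 in DsRed-negative arrays. Its arrays were tightly grouped, and the difference was 1.78 ± 0.31 or 3.43-fold (adjusted p = 0.00766). Srebf2, the factor gene of the sterol branch, read 11.71, 11.63 and 11.70 in DsRed-positive arrays, against 10.16, 10.31 and 9.07 in DsRed-negative arrays. The Srebf2 difference was 1.83 ± 0.41 or 3.56-fold (adjusted p = 0.0217), but its second probe set gave 0.26 and did not pass. Without the arrays numbered 1 the differences were 1.68 for Srebf1 (adjusted p = 0.0846) and 1.98 for Srebf2 (0.125). Srebf1 was read on 1 probe set, so its isoforms were not told apart.

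Scap, the escort protein, differed by 1.20 ± 0.42 (adjusted p = 0.0955), with every DsRed-positive array above every DsRed-negative one. Insig1, the retention protein that is itself a target of these factors, read 12.25, 13.88 and 11.68 in DsRed-positive arrays, against 13.50, 14.24 and 13.01 in DsRed-negative arrays. Its value had the opposite sign to most sterol enzymes at -0.98 ± 0.62, the groups overlapped, and the difference did not pass (adjusted p = 0.325). Within each number, Insig1 was the lower in the DsRed-positive array, by -1.25, -0.36 and -1.33 for numbers 1, 2 and 5. Insig2 differed by 0.14 (adjusted p = 0.854). Stard4, a carrier that moves cholesterol between membranes, differed by -0.85 ± 0.44 (adjusted p = 0.229), and was also the lower in the DsRed-positive array of each number on that probe set. The 2 dimmer Stard4 probe sets gave 0.18 and -0.56, did not pass, and ran in both directions across the numbers.

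Among fatty acid genes the entry enzymes Fasn, Acaca and Acly did not pass on their brightest probe sets. Fasn, fatty acid synthase, read 12.00, 13.17 and 12.03 in DsRed-positive arrays, against 12.06, 13.19 and 12.84 in DsRed-negative arrays. The Fasn groups overlapped throughout, with a difference of -0.30 ± 0.48 (adjusted p = 0.710). Acaca, which makes malonyl-CoA, differed by 0.29 ± 0.44 (adjusted p = 0.699). A dimmer Acaca probe set gave 1.03 with separate groups and did not pass (0.0924). There all 3 DsRed-negative arrays lay at or below the control level, and the fold was at least 1.31. Acly, which cleaves citrate to acetyl-CoA, differed by 0.34 ± 0.32 (0.514) on its brightest probe set, whereas a dimmer one was called at 1.38 ± 0.32 (0.0231). The dimmest tested Acly probe set gave 0.79 with separate groups and did not pass (0.146).

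Me1, the malic enzyme that supplies NADPH, read 13.98, 14.19 and 14.03 in DsRed-positive arrays, against 13.10, 13.06 and 12.74 in DsRed-negative arrays. The Me1 groups were separate and the difference was 1.10 ± 0.31 or 2.14-fold, at the edge of the threshold (adjusted p = 0.0499). Its call was lost in all 6 fits that left out 1 array, with adjusted p up to 0.154, and without both arrays numbered 1 the difference was 1.21 (adjusted p = 0.173).

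Elongation and desaturation gave the widest contrast of the set. Elovl6, which elongates palmitate to stearate, read 14.04, 14.75 and 14.28 in DsRed-positive arrays 1, 2 and 5, against 11.94, 12.11 and 11.17 in DsRed-negative arrays. The groups were well apart at 2.61 ± 0.39 or 6.12-fold (adjusted p = 0.00392), both tested probe sets were called, and the difference without the arrays numbered 1 was 2.87 (0.0476). Scd1, a stearoyl-CoA desaturase, read 8.42, 9.27 and 8.58 in DsRed-positive arrays, against 12.80, 12.30 and 12.62 in DsRed-negative arrays. It was the gene called lower, by -3.82 ± 0.37 or 14.1-fold lower (adjusted p = 0.000571), and by -3.54 (0.0248) without the arrays numbered 1. A dimmer Scd1 probe set gave -1.37 and did not pass. Its paralog Scd2 averaged 15.52 ± 0.35 in DsRed-positive cells and 14.67 ± 0.66 in DsRed-negative cells (SD, n = 3 each), a difference of 0.85 that did not pass (adjusted p = 0.226). Scd1 and Scd2 have similar sequences, and cross-hybridization between their probe sets was not tested. Of the adipocyte markers that passed the filter, Fabp4 was higher, as given above, and Plin4 differed by 0.47 (adjusted p = 0.591). Of those below the filter, Adipoq (7.72) and Retn (8.66) exceeded the control level on DsRed-negative 2 alone. Cidec (7.89) did so on DsRed-positive 2 alone. The part of adipocytes in the Scd1 difference was not tested.

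Genes around these pathways were counted from lists of their own. Of 28 other fatty acid synthesis genes tested, 7 were higher and 2 lower, against 9.21% and 11.3% of all tested genes, with a median difference of 0.77, against 0.035. Elovl4, an elongase of very long chains, was higher by 3.45 (adjusted p = 0.00220), with DsRed-negative signal at or below the control level on 2 arrays. The acyl-CoA synthetase Acsl3 was higher by 2.98 and the elongation-cycle dehydratase Hacd2 by 2.04, while the desaturase family member Fads3 was at least 5.80-fold lower, because its DsRed-positive signal lay at or below the control level. Of 16 glycerolipid genes, 3 were higher and none lower, against the same 9.21% and 11.3%. The 3 were the lipid droplet coat gene Plin2 (1.64, adjusted p = 0.00997), the triglyceride-forming Dgat2 (1.57) and the phosphatidate phosphatase Lpin2 (1.24). At an unadjusted p under 0.05 in limma's test 1 of the 16 was lower, against 2517 of all 14222 tested genes. None of 7 other genes of sterol and isoprenoid synthesis and their electron donors passed in limma's test, and their median was 0.36. In that test 1 was higher at an unadjusted p under 0.05, against 2483 of all 14222 tested genes. Without both arrays numbered 1, Acsl3 and Fads3 were the called genes of these 3 lists.

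Genes of sterol uptake, efflux and oxysterol formation were called in the other direction. Of 22 tested, none was higher and 9 were lower in DsRed-positive cells, against 9.21% and 11.3% of all tested genes. Their median was -0.58, and 2 were higher at an unadjusted p under 0.05 in limma's test, against 2483 of all 14222 tested genes. Ch25h, which makes 25-hydroxycholesterol, read 9.92, 10.08 and 9.79 in DsRed-positive arrays, against 12.34, 13.06 and 12.91 in DsRed-negative arrays, lower by -2.84 (adjusted p = 0.00146). The lipoprotein receptor gene Lrp1 (-2.47, adjusted p = 0.00425) and the lipoprotein gene Apoe (-3.58, adjusted p = 0.00431) were lower. Gramd1a, a carrier of cholesterol from the plasma membrane, was at least 6.14-fold lower. Without both arrays numbered 1, Ch25h, Lrp1, Apoe and Gramd1a were the 4 called genes of the list. Fibroblast markers were lower in the same arrays, and leukocyte markers were too, in 5 of 7 cases. So were 4 of 5 smooth muscle markers and 4 of 6 endothelial markers. Of 15 other control genes, 1 was higher and 2 lower, shares near the 9.21% and 11.3% of all tested genes. The higher gene was Prkaa2, a catalytic subunit of AMP-activated kinase (2.99), with DsRed-negative 5 below the control level. The lower ones were Mylip, whose product marks lipoprotein receptors for breakdown (-3.09, adjusted p = 0.00146), and the transcription factor gene Creb3l3 (-3.39). None of 11 mitosis genes passed in limma's test, and their median was 0.84. In that test 2 were higher in DsRed-positive arrays at an unadjusted p under 0.05, against 2483 of all 14222 tested genes.

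**Figure D4:**
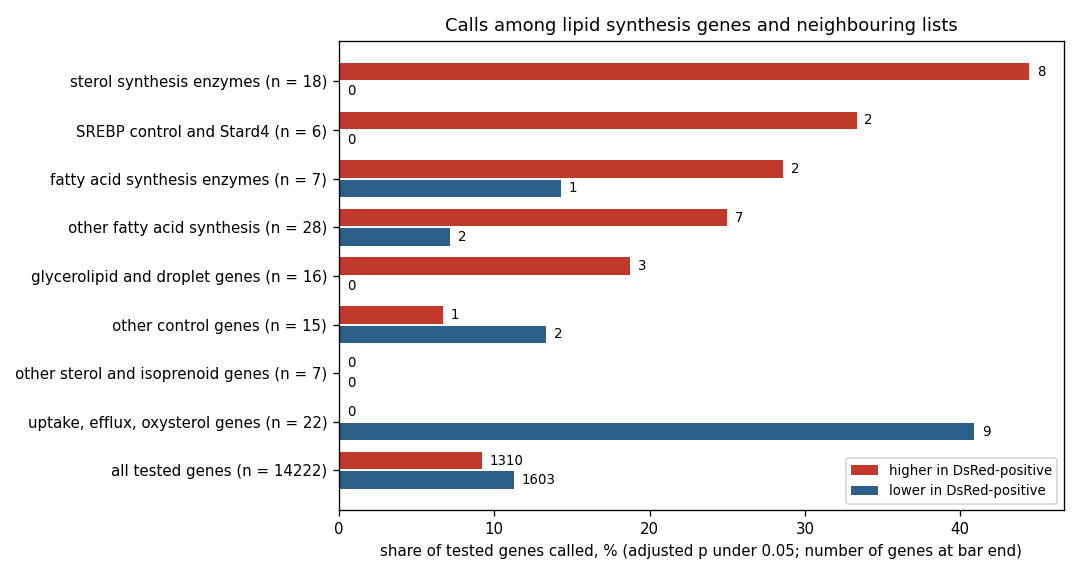
Share of tested genes called higher (red) or lower (blue) in DsRed-positive cells (x axis, percent), for the groups of sterol and fatty acid synthesis genes, neighbouring lists and all tested genes (y axis), with the number of genes at the bar end. Sterol enzymes have 8 higher and 0 lower, uptake, efflux and oxysterol genes 0 higher and 9 lower, and all tested genes 1310 and 1603.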

How the data were processed

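The deposited table holds 1 linear intensity per probe set and array (Affymetrix Mouse Genome arrays, RNA amplified in 2 rounds per the labels). The submitters' processing notes name GCOS, with version and settings not given in the sources used here. Each array has nearly the same 2% trimmed mean of deposited intensity (1499 to 1500). Here, an offset of 39.84 (20th percentile) was added, log2 taken, and values quantile normalized because array medians spanned 0.74. These medians were 7.74 to 7.94 in DsRed-positive arrays and 8.29 to 8.48 in DsRed-negative arrays. After normalization, hybridization control probe sets averaged 12.92, 14.14 and 14.29 on DsRed-positive 1, 2 and 5. On DsRed-negative 1, 2 and 5 they averaged 14.32, 15.82 and 15.28. Array scale thus differed with the group compared, and its part in the differences was not tested. Of 45101 probe sets, 64 were controls, and the 30175 above the 33rd percentile of mean signal (7.18) entered the fit (limma 3.58.1, R 4.3.3). The offset shrinks differences of dim genes. Genes were read on their brightest single-gene probe set, with symbols updated through gene IDs. The control level of an array was the 95th percentile of 27 unspiked bacterial probe sets. A fold against a group with no array over that level was computed from the level itself and written "at least".

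All member genes were named, and the 4 called genes with the smallest p of each neighbouring list, of which a selection is printed; Prkaa2 and Creb3l3 complete their list. Members and lists were chosen with earlier results of these data known. The fit was tested on simulated data with independent noise on each array. That test does not cover effects of array number, sex or cell makeup. Same-numbered arrays correlated by 0.145, 0.037 and 0.053 in their deviations from group means (numbers 1, 2 and 5), which alone does not establish pairs. Both arrays numbered 1 also shared the high Xist signal that the other arrays lacked. The labels do not say whether a number marks a shared origin, and the main test did not use it.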

Additional observations from a re-analysis of the deposited data

How the results depend on the processing

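All 12 genes called higher and Scd1 kept their direction in all 20 alternatives. Fdps, Sc5d, Elovl6 and Scd1 were called in every one, and Fdft1 and Srebf1 in all 6 fits without 1 array. With fewer arrays, fewer genes passed: in fits without 1 array or without both arrays of a number, the genes of these pathways called higher numbered 3 to 12 and those called lower 1 in each, while tested genes called higher numbered 485 to 1263 and lower 758 to 1485. The count of 12 was 5 without DsRed-positive 1 and 5 without DsRed-positive 2, and 3, 9 and 7 without both arrays numbered 1, 2 and 5. Centring arrays on their medians, 17 of the 31 and 2568 of all tested genes were higher, and higher genes made up 64.7% of all calls, against 37.6% with values as deposited. Without probe sets ending _s_at or _x_at, 12 were higher, with Me1 lost and Acly gained. With the number as a replicate block, 12 were higher and 1 lower, with Me1 lost (adjusted p = 0.0917) and Hsd17b7 gained, and in deviations from group means, though not in the values themselves, every array correlated best with its own number in the other group. Hmgcs1, Ggps1, Insig2, Acaca and Fasn changed sign in at least 1 alternative. The 3 arrays per group and signal near the control level limit the sizes given.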

Other observations

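Several neighbouring lipid genes, chosen after their values were seen, lay near the threshold or moved with their list. Fads2 and Fads1, the desaturases of polyunsaturated fatty acids, differed by 1.41 (adjusted p = 0.0569) and 1.00 (0.0765), with every DsRed-positive array above every DsRed-negative one. Acss2, which makes acetyl-CoA from acetate, was higher in DsRed-positive cells by 1.64 ± 0.33 (adjusted p = 0.0128), and Hsd17b12, the ketoreductase of the elongation cycle, by 1.82 ± 0.33 (0.00878). The dehydratase family was split, with Hacd2 higher by 2.04 and Hacd1, a form of muscle, lower by -1.98 (adjusted p = 0.00914).

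Among sterol genes outside synthesis, the bile acid and oxysterol hydroxylase gene Cyp27a1 was lower by -2.78 ± 0.49 (adjusted p = 0.00761), the lysosomal lipase gene Lipa by -1.96 ± 0.34 (0.00703) and the HDL receptor gene Scarb1 by -1.57 ± 0.38 (0.0288). The efflux transporter gene Abca1 differed by -0.97 (adjusted p = 0.204) and the late endosomal carrier gene Npc2 by -0.62 (0.229), neither of which passed. All these values are from limma with Benjamini-Hochberg adjustment.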
